A study of Mus musculus with 35 samples.

Results

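Accessible chromatin around Gfi1 and Gfi1b, a pair of related blood transcription factor genes, was followed by ATAC-seq through the endothelial-to-hematopoietic transition of the mouse embryo, the process by which some arterial endothelial cells (EC) turn into hemogenic endothelium (HE) and then into blood progenitors. The peaks were chosen by position alone, as all peaks of the deposited table whose midpoint lay in chr5:108100000-108210000 (110 kb, the Gfi1 window) or chr2:28420000-28500000 (80 kb, the Gfi1b window) on build mm9. This gave 16 peaks out of 76018, 9 in the Gfi1 and 7 in the Gfi1b window. They are numbered in each window from the lowest to the highest coordinate. The windows themselves were chosen with earlier results of these data known.

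ATAC-seq counts the cuts of a transposase in open chromatin, and each library came from a pool of 1500 sorted cells. For EC there are 4 libraries at each of E8.5, E9.5 and E10.5 (days of embryonic development), and for HE likewise. A further population, pro-HSC/HPC in the labels, was taken at E9.5 in 3 libraries. At E10.5 the labels name pre-HSC I as well as pre-HSC II, each in 4 libraries. HSC stands for hematopoietic stem cell and HPC for hematopoietic progenitor cell. All 9 groups carry the same genotype label, 23GFP transgenic, and there is no group without the transgene; in this field that name denotes a GFP reporter driven by an enhancer of Runx1. The tissue is labelled PAS+VU for the E8.5 samples and AGM+VU for those of E10.5, while the E9.5 samples carry the E8.5 tissue label, so their day was taken from the titles. Tissue and day therefore cannot be told apart between E9.5 and E10.5. The labels give no surface markers for the sorts, and the table has no gene names by which the populations could be checked against their defining markers.

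GFI1 and GFI1B are closely related zinc finger proteins that repress transcription. Through their SNAG domain they recruit the histone demethylase LSD1 with its CoREST and histone deacetylase partners. In the embryo both genes act downstream of RUNX1, and together they shut down the endothelial program as hemogenic cells round up and leave the vessel wall. GFI1 is known from hemogenic endothelium and GFI1B from the blood cells that emerge from it, and later GFI1 serves stem cells and granulocytes and GFI1B red cells and platelets.

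The promoter sequences of both genes are shown because these genes define the windows. They are the 250 bases before the start site in RefSeq on GRCm38.p6, another build than that of the peaks, so which peak covers them was not determined here. RefSeq lists 2 promoters for Gfi1, of which the one farther upstream is shown, and 1 for Gfi1b. Both genes lie on the minus strand, and both sequences are written 5′ to 3′ along the gene. Capitals mark a match to any of the 5 motifs searched.
Gfi1 promoter, chr5:107725806-107726055: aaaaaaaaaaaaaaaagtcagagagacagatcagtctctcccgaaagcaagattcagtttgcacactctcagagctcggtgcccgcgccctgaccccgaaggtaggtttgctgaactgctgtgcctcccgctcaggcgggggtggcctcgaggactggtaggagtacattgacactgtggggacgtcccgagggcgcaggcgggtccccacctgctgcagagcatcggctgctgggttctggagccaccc
Gfi1b promoter, chr2:28621983-28622232: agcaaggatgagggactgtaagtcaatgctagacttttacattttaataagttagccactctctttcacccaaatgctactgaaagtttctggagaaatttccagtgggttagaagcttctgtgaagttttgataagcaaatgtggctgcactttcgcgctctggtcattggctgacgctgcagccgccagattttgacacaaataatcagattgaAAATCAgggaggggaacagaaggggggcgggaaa
The motifs, searched on both strands in the whole promoter window of 300 bases, were TGTGGT for the RUNX family, AGATAA for the GATA factors, CAGGAA for the ETS family, CATCTG as an E-box and AAATCA as the core that GFI1 proteins recognise. The single match in the sequences shown is AAATCA in Gfi1b, which begins 34 bases before the start. It is also held by 14.0% of the 32851 promoters in the RefSeq table. The other Gfi1 promoter held CAGGAA on the opposite strand 2 times, a motif found in 30.6% of promoters. These matches are letters in a window and not binding sites.

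In RefSeq the nearest protein-coding genes on either side are Rpap2 and Evi5 for Gfi1, and Gtf3c5 and Tsc1 for Gfi1b. Peaks in the windows can lie in or belong to these neighbours, and the position of a peak relative to exons, introns and start sites was not determined. Gfi1 peak 3 (chr5:108152854-108155376) was the widest, at 2522 bp, with peak 4 (chr5:108155796-108155969) 420 bp beyond its end. Gfi1 peaks 5 (chr5:108178279-108179410) and 6 (chr5:108187987-108188834) lay 24.7 and 34.3 kb from the centre of peak 3. In the Gfi1b window peak 5 (chr2:28454044-28455390), 1346 bp wide, followed peak 4 (chr2:28453647-28454000) after 44 bp, and peaks 1 (chr2:28421937-28422393) and 7 (chr2:28496144-28497381) lay at -32.6 and 42.0 kb from its centre.

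Total counts in peaks ran from 456770 to 7415315 per library, so that 3 counts, the limit that a count of 0 allows, stood for 6.57 CPM in the shallowest and 0.405 CPM in the deepest library. CPM are counts scaled to a common library size. The 4 pre-HSC II libraries were shallow, at 456770 to 1241216 counts. In 1 peak of chromosome X the raw counts were 6470 and 7280 in E9.5 EC libraries 3 and 4 and 9126 in E9.5 HE library 4. The remaining E9.5 EC and HE libraries had 777 to 1177, not scaled to depth. Among them HE library 3 had 1062 at a total of only 1839721. E10.5 HE library 4 had 1081 at a total of 1101787, against 140, 508 and 444 in E10.5 HE libraries 1 to 3. Library 4 also had the highest count in E10.5 EC (1282), pre-HSC I (848) and pre-HSC II (726). Because libraries 2 and 3 of pre-HSC I differed by less than the sampling noise, their mean was used and counted as 1 sample, leaving 34 samples. Nothing in the labels ties the pools to separate litters, and the p-values then measure only the spread between samples, which may be technical. A share of accessible cells and the accessibility per cell cannot be told apart in pooled cells.

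Of the 16 peaks 13 had enough counts to be tested, 6 in the Gfi1 and 7 in the Gfi1b window, and 8 of them differed among the 9 groups (edgeR's quasi-likelihood F test, Benjamini-Hochberg adjusted p under 0.05). This was true of 42.2% of the 67108 peaks tested in the whole table. The 8 were Gfi1 peaks 3 to 7 and Gfi1b peaks 1, 4 and 5. The smallest p-values were those of Gfi1 peak 6 (adjusted p = 2.04e-12), Gfi1b peak 5 (adjusted p = 2.25e-10) and Gfi1 peak 3 (adjusted p = 1.30e-09). Of the other 5 tested, Gfi1 peak 1 and Gfi1b peaks 2, 3, 6 and 7 had adjusted p of 0.0985 to 0.548. Gfi1 peaks 2, 8 and 9 had too few counts, with group means of at most 2.76 CPM. Where libraries of groups are said to overlap or not, this describes the members alone. The share of all peaks without overlap was not determined.

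**Figure D1:**
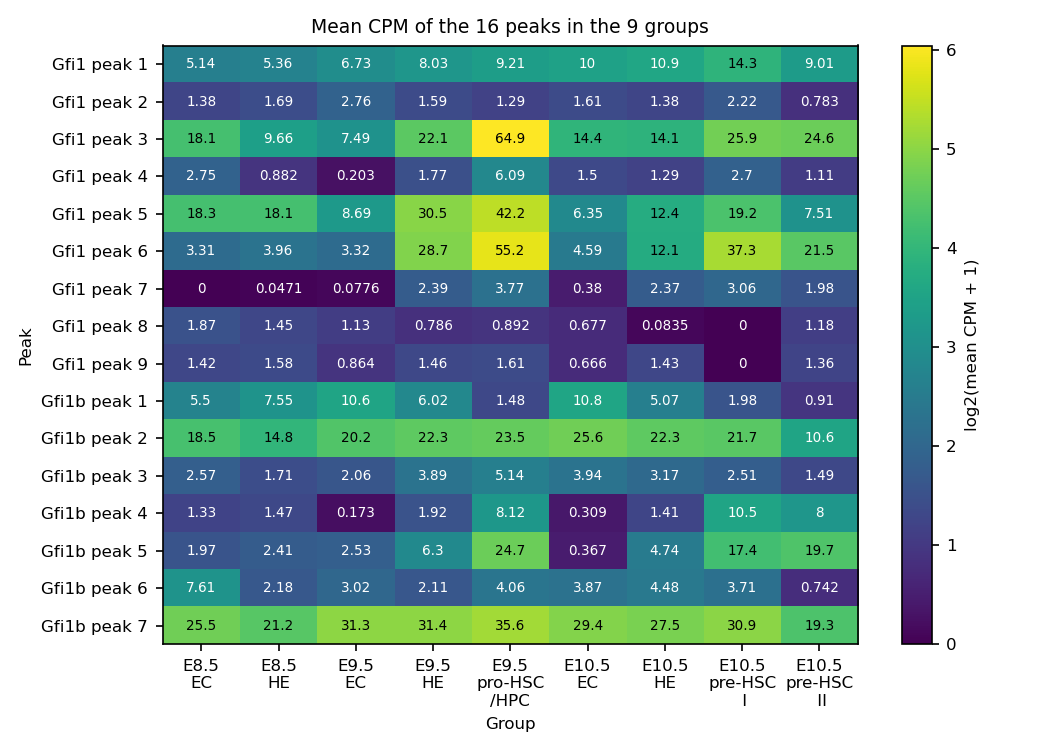
Mean accessibility of the 16 peaks (rows) in the 9 groups (columns), with the mean CPM printed and the colour on a log2(mean CPM + 1) scale. Gfi1 peaks 3, 5 and 6 have their highest mean in pro-HSC/HPC, while Gfi1b peaks 2 and 7 lie between 10.6 and 35.6 CPM throughout.

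Gfi1 peak 6, the member with the smallest p over the groups, had means of 3.31 to 4.59 CPM in EC of the 3 days and in HE at E8.5, and 28.7 CPM in HE at E9.5. It stood at 1.44, 3.49, 2.27 and 6.03 CPM in the E8.5 EC libraries and at 1.21, 5.22, 3.39 and 6.04 CPM in those of E8.5 HE. At E9.5 the EC libraries held 6.21, 4.96, 1.77 and 0.352 CPM and the HE libraries 28.3, 29.4, 19.4 and 37.6 CPM. The pro-HSC/HPC libraries reached 59.0, 70.2 and 36.2 CPM. Every E9.5 HE library lay above all EC and HE libraries of E8.5 and above all E9.5 EC libraries, and pro-HSC/HPC overlapped HE only through its lowest library. At E10.5 it stood at 11.3, 1.19, 0 and 5.86 CPM in EC, at 9.67, 10.9, 13.4 and 14.5 CPM in HE, at 36.8, 41.9 and 33.3 CPM in pre-HSC I, and at 6.94, 25.0, 28.7 and 25.2 CPM in pre-HSC II. Pre-HSC I did not overlap HE or EC, while EC library 1 lay in the range of HE and above pre-HSC II library 1. In order of mean, pro-HSC/HPC (55.2 ± 17.3 CPM, SD, n = 3) was followed by pre-HSC I, E9.5 HE, pre-HSC II, E10.5 HE, E10.5 EC and then the 3 groups at or under 3.96 CPM, and each group overlapped its neighbour in this order.

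Gfi1 peak 3, the strongest peak of that window on average, was open to some degree in every group and highest in pro-HSC/HPC. At E8.5 it stood at 22.4, 25.3, 12.9 and 11.7 CPM in EC and at 10.8, 6.53, 7.72 and 13.5 CPM in HE. At E9.5 it stood at 6.67, 7.06, 10.6 and 5.63 CPM in EC, at 22.0, 18.2, 25.7 and 22.7 CPM in HE and at 53.9, 64.7 and 76.3 CPM in pro-HSC/HPC. The 3 E9.5 populations did not overlap, with EC lowest and pro-HSC/HPC highest. The E10.5 libraries were at 29.2, 7.74, 8.06 and 12.6 CPM in EC, 16.1, 15, 6.68 and 18.5 CPM in HE, 23.9, 19.3 and 34.5 CPM in pre-HSC I and 13.9, 25.0, 31.1 and 28.2 CPM in pre-HSC II. At this day the groups overlapped, except pre-HSC I and HE, and EC library 1 stood above every HE library. Only pro-HSC/HPC was apart from the group next in order of mean, pre-HSC I.

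Gfi1 peak 5 was already open in both E8.5 populations and had lower means in EC at the later days. It stood at 12.3, 26.1, 17.0 and 17.7 CPM in E8.5 EC and at 8.44, 26.8, 17.0 and 20.3 CPM in E8.5 HE. The E9.5 EC libraries had 9.62, 10.7, 5.30 and 9.14 CPM, the HE libraries 29.2, 36.0, 26.8 and 30.1 CPM and the pro-HSC/HPC libraries 48.7, 53.1 and 24.7 CPM. At E10.5 it had 2.83, 7.14, 4.89 and 10.54 CPM in EC, 12.9, 16, 9.36 and 11.3 CPM in HE, 18.1, 19.3 and 20.2 CPM in pre-HSC I, and 3.47, 2.50, 4.78 and 19.3 CPM in pre-HSC II. The E9.5 HE libraries did not overlap E9.5 EC, and pre-HSC II was low in all libraries but library 4, which lay in the range of pre-HSC I.

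The small peaks beside these followed at low levels. Gfi1 peak 4 stood at 6.26, 7.39 and 4.62 CPM in pro-HSC/HPC, above the libraries of every other group, whose means were 0.203 to 2.75 CPM. Gfi1 peak 7 (chr5:108197300-108197552) had no count in any E8.5 EC library and 1 count in all E8.5 HE libraries together. E9.5 EC had 2 counts, E9.5 HE 46 and pro-HSC/HPC 33. Gfi1 peak 1 (chr5:108116966-108117633), at the other end of the window, had group means of 5.14 to 14.3 CPM that overlapped along their whole order. Over all 9 peaks of the window the E9.5 sum was 31.3 ± 3.21 CPM for EC (SD, n = 4), 97.4 ± 7.08 CPM for HE (SD, n = 4) and 185 ± 28.3 CPM for pro-HSC/HPC (SD, n = 3). Pre-HSC I had a sum of 105 ± 5.05 CPM (SD, n = 3). At E9.5, peak 6 held 10.6% of that sum for EC and 29.5% for HE.

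**Figure D2:**
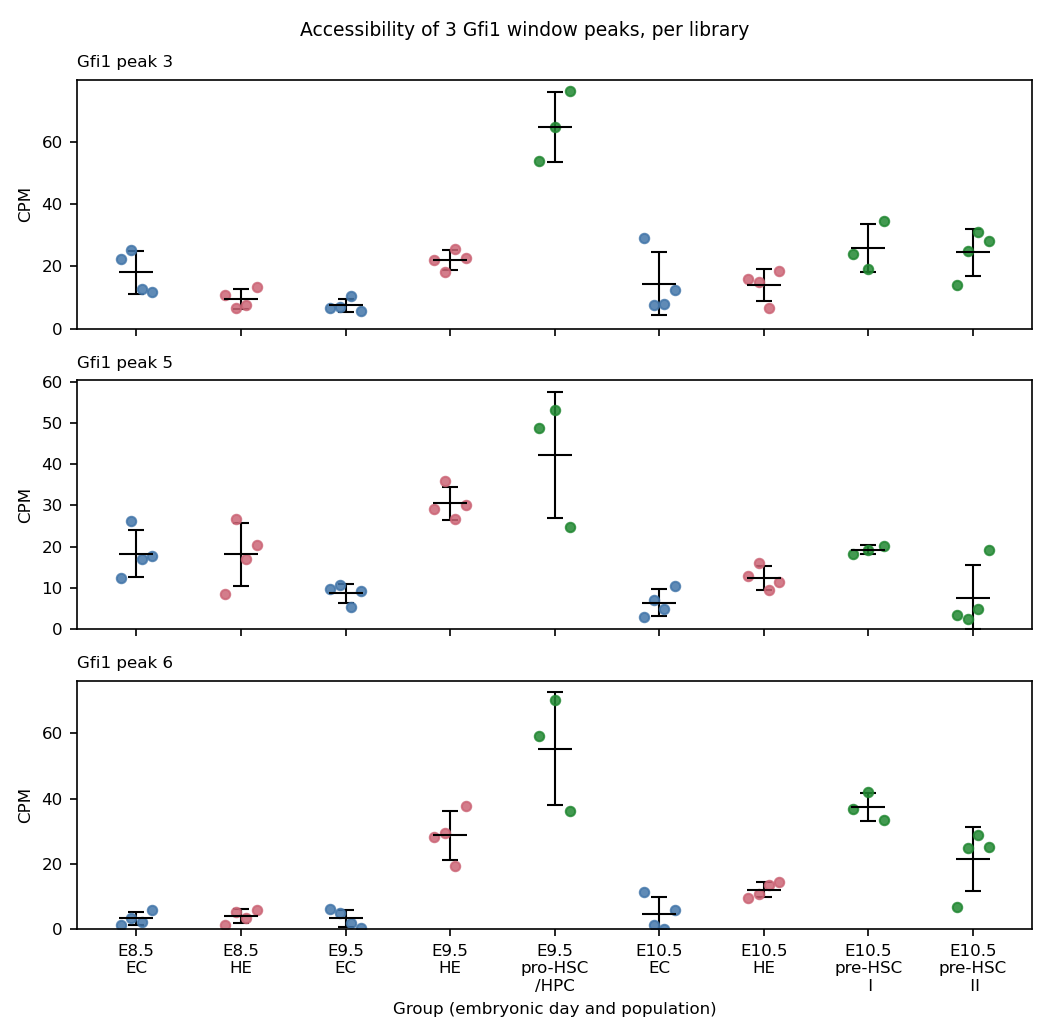
CPM of Gfi1 peaks 3, 5 and 6 in each library (points) for the 9 groups on the horizontal axis; horizontal bars are means and whiskers SD, drawn down to 0 at most. At peak 6 the E9.5 HE libraries lie at 19.4 to 37.6 CPM, above all E9.5 EC libraries.

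Gfi1b peak 5 had its highest means in pro-HSC/HPC, pre-HSC II and pre-HSC I, and means of at most 6.3 CPM in EC and HE of all days. It stood at 1.44, 1.74, 1.136 and 3.54 CPM in E8.5 EC and at 2.41, 0, 3.39 and 3.84 CPM in E8.5 HE. At E9.5 it stood at 0.621, 4.20, 1.77 and 3.52 CPM in EC, 6.61, 11.3, 3.42 and 3.91 CPM in HE and 22.9, 27.2 and 23.9 CPM in pro-HSC/HPC. The 3 pro-HSC/HPC libraries were all above every HE library, whereas HE and EC overlapped. The E10.5 EC libraries had 0, 0.595, 0.288 and 0.586 CPM and those of HE 0, 2.04, 4.01 and 12.9 CPM. Pre-HSC I followed with 12.3, 27.9 and 11.9 CPM and pre-HSC II with 24.3, 16.3, 29.9 and 8.17 CPM. HE library 4, at 12.9 CPM, lay above 2 of the 3 pre-HSC I samples and above pre-HSC II library 4, so HE overlapped both. In order of mean, pro-HSC/HPC, pre-HSC II and pre-HSC I overlapped one another, pre-HSC I was apart from E9.5 HE below it, and E10.5 EC was apart from all groups above it but E8.5 and E10.5 HE, which had a library at 0.

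Gfi1b peak 4, 44 bp away, showed the same groups high at a lower level. It had 6.80, 3.69 and 13.9 CPM in pro-HSC/HPC, 11.6, 7.87 and 11.9 CPM in pre-HSC I and 0, 8.76, 14.3 and 8.91 CPM in pre-HSC II, where library 1 was the shallowest of all. In the 6 EC and HE groups its means were 0.173 to 1.92 CPM. Across the 34 samples its log2 CPM correlated with that of peak 5 at r = 0.65, a description over libraries that share depth.

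Gfi1b peak 1 had its highest means in EC of E9.5 and E10.5 and its lowest in pre-HSC II, pro-HSC/HPC and pre-HSC I. It stood at 9, 11.6, 8.83 and 13.0 CPM in E9.5 EC and 9.42, 8.73, 15.5 and 9.66 CPM in E10.5 EC. The pro-HSC/HPC libraries were at 2.45, 0.462 and 1.54 CPM, those of pre-HSC I at 0, 3.55 and 2.38 CPM and those of pre-HSC II at 0, 1.25, 2.39 and 0 CPM. All EC libraries of E9.5 and E10.5 were above every library of these 3 populations, and the HE means were 6.02 CPM at E9.5 and 5.07 CPM at E10.5. Single HE libraries reached down to 1.141 CPM at E9.5 and 1.61 CPM at E10.5, within the range of those populations, and up to 9.65 CPM at E9.5, within that of EC. At E8.5 HE had the higher mean, 7.55 ± 2.24 CPM against 5.5 ± 4.45 CPM in EC (SD, n = 4 each), with overlap. Its log2 CPM had r = -0.53 with Gfi1b peak 5 and -0.63 with Gfi1 peak 3 over the 34 samples.

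Gfi1b peaks 2 and 7, the strongest of their window, were open in every group. Peak 7 had means from 19.3 ± 13.4 CPM in pre-HSC II (SD, n = 4) to 35.6 ± 13.2 CPM in pro-HSC/HPC (SD, n = 3), and peak 2 (chr2:28438159-28438921) from 10.6 ± 4.78 CPM in pre-HSC II to 25.6 ± 3.22 CPM in E10.5 EC (SD, n = 4 each). They held 31.8% to 44.7% and 17.5% to 34.4% of the summed CPM of the window. The window's sum ran from 51.4 ± 14.2 CPM in E8.5 HE (SD, n = 4) to 103 ± 19.4 CPM in pro-HSC/HPC (SD, n = 3), although peak 5 went from 0.494% of it in E10.5 EC to 32.3% in pre-HSC II.

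**Figure D3:**
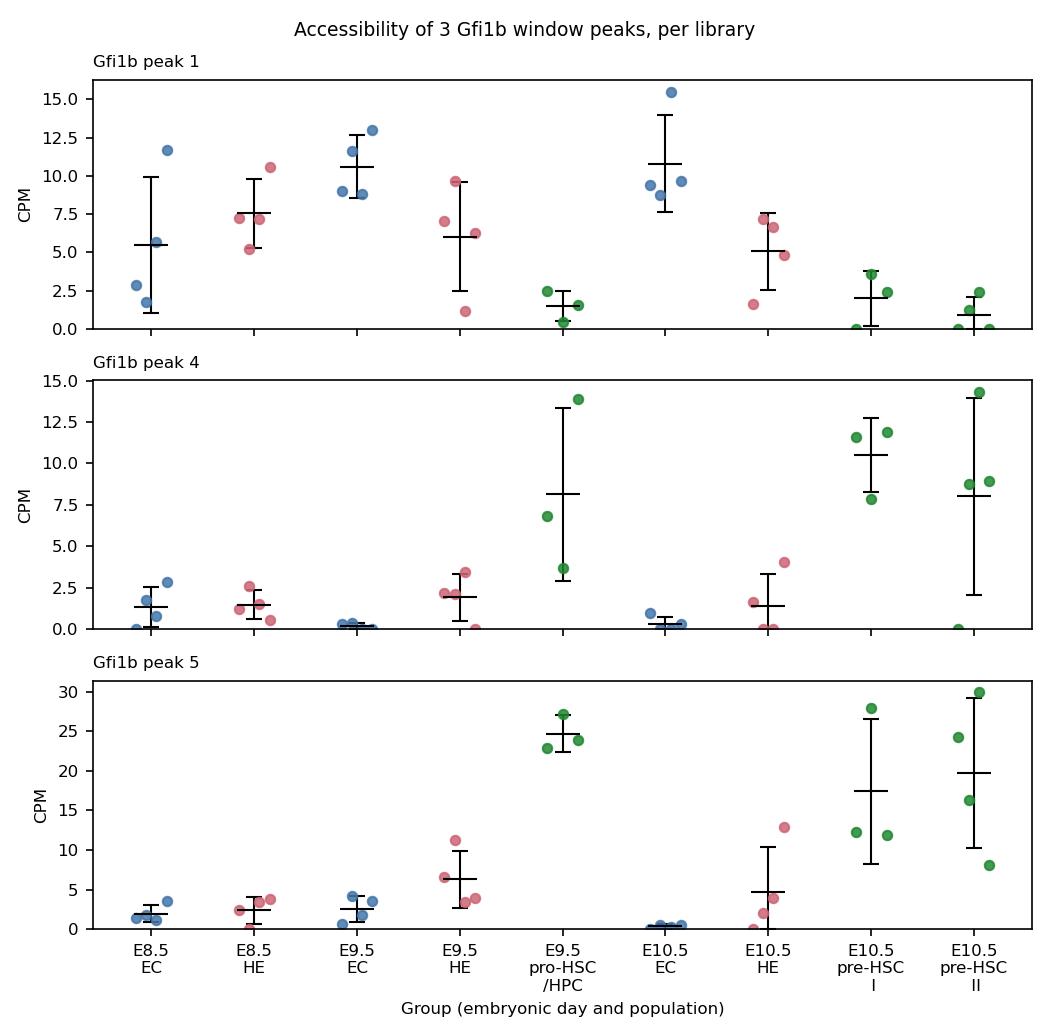
CPM of Gfi1b peaks 1, 4 and 5 in each library (points) for the 9 groups on the horizontal axis; horizontal bars are means and whiskers SD, drawn down to 0 at most. Peak 5 lies at 22.9 to 27.2 CPM in pro-HSC/HPC and at 0 to 0.595 CPM in E10.5 EC, while peak 1 is highest in EC of E9.5 and E10.5.

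The step from endothelium to hemogenic endothelium was tested within each day. At E8.5 none of the 13 peaks tested was called, while 1.44% of all peaks were (1.31% higher and 0.13% lower in HE), and 2 had an unadjusted p under 0.05 (Gfi1 peak 3, log2 fold change -0.82 ± 0.37, SE, and Gfi1b peak 6 (chr2:28494500-28494788), -1.73 ± 0.68, SE), both lower in HE. DESeq2 also called none, and 3.45% of all peaks. At E9.5 Gfi1 peaks 3, 5 and 6 rose in HE, which made 3 of the 6 tested in that window against 1.36% of all peaks that were higher, 1.21% that were lower and 2.58% either way. Peak 6 rose 7.41-fold, by 2.89 ± 0.49 (log2, SE, adjusted p = 0.000216), peak 5 by 1.75 ± 0.37 (log2, SE, adjusted p = 0.0028) and peak 3 by 1.61 ± 0.36 (log2, SE, adjusted p = 0.00551). The median log2 fold change over the 6 tested peaks was 2.08, and 0.05 over all peaks. In the Gfi1b window none of 7 was called at E9.5, with peak 5 at 1.36 ± 0.58 and peak 4 at 2.77 ± 1.02 (log2, SE, adjusted p = 0.259 and 0.155). The 3 Gfi1 calls held when any 1 library was left out, and that of peak 3 was lost after thinning (1.79, adjusted p = 0.0709). With the 3 E9.5 libraries of high chromosome X counts left out, none of the 3 was called, at log2 fold changes of 1.67, 1.61 and 2.22 for peaks 3, 5 and 6 (adjusted p = 0.172, 0.228 and 0.138), and only 0.0511% of all peaks were.

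At E10.5 the single call was Gfi1b peak 5, at a log2 fold change of 3.28 ± 0.79 in HE over EC (SE, adjusted p = 0.0121), where 0.717% of all peaks were called higher, 1.57% lower and 2.28% either way. Its HE and EC libraries overlapped, and the call was lost without HE library 4 (2.37, adjusted p = 0.149), without EC library 3 (adjusted p = 0.0538) and without HE libraries 1 and 4 (2.73, adjusted p = 0.125), where 0.512% of all peaks were called. It was also lost with all libraries thinned to the lowest total (2.15, adjusted p = 0.452), where Gfi1 peak 6 became the single call (2.54, adjusted p = 0.0311). With only these groups in the fit, paired or not, it had too few counts to be tested. In the fit of all libraries Gfi1 peak 6 had 1.56 ± 0.52 (log2, SE, adjusted p = 0.100), and it was also called without EC library 1, at 2.36 (adjusted p = 0.00775). Gfi1 peaks 5 and 3 had 0.93 ± 0.40 and -0.02 ± 0.36 (log2, SE).

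Whether the difference between HE and EC changed from day to day was tested directly. From E8.5 to E9.5 it rose by 2.43 ± 0.52 (log2, SE, adjusted p = 0.00695) at Gfi1 peak 3, the 1 member called, against 1.5% of all peaks (0.282% higher and 1.21% lower). For EC the mean of that peak was 18.1 CPM at E8.5 and 7.49 CPM at E9.5, and for HE it was 9.66 and 22.1 CPM. Peaks 6 and 5 had 2.64 ± 0.78 and 1.75 ± 0.52 (log2, SE, adjusted p = 0.0636 and 0.0672). Peak 5 was called with scaling by total counts (adjusted p = 0.0431), by DESeq2 (0.0157), with the replicate block (0.0353), with loess offsets (0.0346) and with only these groups in the fit (0.00237). Peak 6 was called with loess offsets (adjusted p = 0.041), with only these groups (0.00525) and without E9.5 EC library 1 (0.0484). The call at peak 3 was lost without the 4 shallow E8.5 libraries (1.88, adjusted p = 0.329), where 0.00823% of all peaks were called, or without the 3 E9.5 libraries of high chromosome X counts (2.46, adjusted p = 0.0684), where 0.0625% were, and its value was 4.07 after thinning. For the step to E10.5, edgeR called 0% of all peaks and 0 members; Gfi1 peaks 3 and 4 had an unadjusted p under 0.05, at -1.64 ± 0.51 and -2.92 ± 1.39 (log2, SE, adjusted p = 1.00), and DESeq2 called 0 members. Within HE, Gfi1 peak 6 rose from E8.5 to E9.5 by 2.78 ± 0.50 (log2, SE, adjusted p = 0.000432), 1 of 13 members against 2.14% of all peaks (0.893% higher and 1.24% lower), in all alternatives run. Gfi1 peak 3 had 1.15 ± 0.35 (adjusted p = 0.0635) and was called with only these groups in the fit (adjusted p = 0.00464). It was also called with the replicate number as a block (adjusted p = 0.0482), though same-numbered libraries hardly deviated together (r = -0.023 to 0.057). Gfi1 peak 5 had 0.76 ± 0.35 (adjusted p = 0.282) and was called with only these groups (adjusted p = 0.0308). Gfi1 peak 7 had 4.44 ± 1.35 (adjusted p = 0.0632) and was called by DESeq2 (adjusted p = 0.033). Those fits called 12.5% and 5.21% of all peaks. Within HE, no member was called by edgeR between E9.5 and E10.5, and 0.557% of all peaks (0.0626% higher and 0.495% lower). Gfi1 peaks 5 and 6, at -1.30 ± 0.37 and -1.25 ± 0.46 (log2, SE, adjusted p = 0.0847 and 0.228), were the members with an unadjusted p under 0.05 there. The HE libraries of both days did not overlap at either peak, though neither was called in the main fit. Peak 5 was called by DESeq2 (-1.29, adjusted p = 0.0181) and with the replicate number as a block (-1.31, adjusted p = 0.049). Same-numbered HE libraries of these days had r of -0.072 to 0.185 in their deviations. These fits called 2.02% and 0.837% of all peaks.

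**Figure D4:**
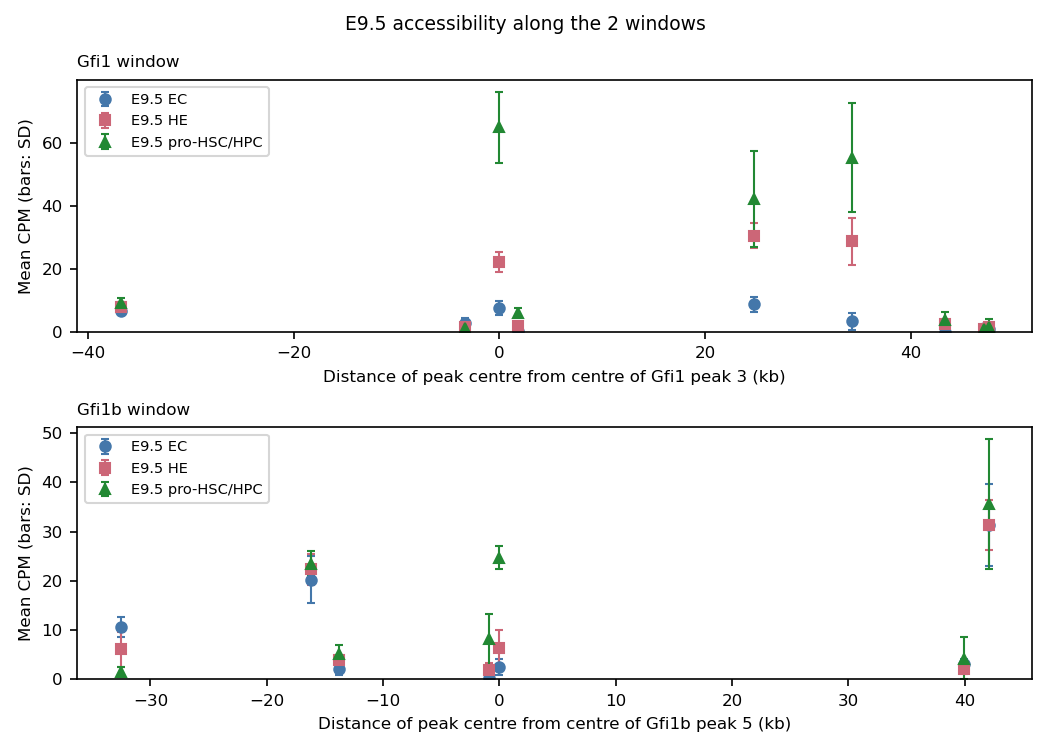
Mean CPM (symbols, bars SD, drawn down to 0 at most) of each peak in the 3 E9.5 populations against the distance in kb of its centre from that of Gfi1 peak 3 (upper panel) or Gfi1b peak 5 (lower panel). HE lies above EC with no overlap of libraries at Gfi1 peaks 3 to 7, of which peaks 3, 5 and 6 were called. Pro-HSC/HPC lies above HE with no overlap at Gfi1 peaks 3 and 4 and Gfi1b peaks 4 and 5. Only Gfi1 peak 3 was called there. The share of all peaks without overlap was not determined.

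Pro-HSC/HPC was compared with HE and EC of the same day. Over HE, Gfi1 peak 3 rose 2.94-fold, by 1.56 ± 0.35 (log2, SE, adjusted p = 0.0109), the 1 call among the 13, where 0.644% of all peaks were higher, 1.1% lower and 1.74% either way. The call was lost without pro-HSC/HPC library 3 (1.37, adjusted p = 0.0831), pro-HSC/HPC library 2 (adjusted p = 0.0538) or HE library 2 (adjusted p = 0.0618). Gfi1b peak 5 had 1.89 ± 0.56 (log2, SE, adjusted p = 0.0588), with no overlap, and was called by DESeq2 (adjusted p = 0.0442), with the replicate block (adjusted p = 0.0372) and with only these groups in the fit (adjusted p = 0.00113). That last fit called 3 members, Gfi1 peak 6 being the other one (0.97, adjusted p = 0.00698), and it called 8.5% of all peaks it tested, against 1.74% with all groups.

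Over E9.5 EC, 7 of the 13 rose and 1 fell, where 5.05% and 6.8% of all peaks did, 11.8% in all. Gfi1 peak 3 rose 8.99-fold and peak 6 14.3-fold, by 3.17 ± 0.38 and 3.84 ± 0.52 (log2, SE, adjusted p = 1.73e-08 and 2.37e-07), and peak 5 by 2.23 ± 0.39 (log2, SE, adjusted p = 3.41e-05). Peak 6 had 3.24 without the 3 E9.5 libraries of high chromosome X counts. Gfi1b peak 5 rose 9.52-fold, by 3.25 ± 0.61 (log2, SE, adjusted p = 9.92e-05), and by 2.39 after thinning. Gfi1b peak 4, with 51 counts against 4 in EC, rose by 4.80 ± 1.04 (log2, SE, adjusted p = 0.000705). Its value was 4.2 without pro-HSC/HPC library 3 and 3.81 with loess offsets. Gfi1b peak 1 fell by 2.72 ± 0.69 on the log2 scale (SE, adjusted p = 0.0041; -3.53 without pro-HSC/HPC library 1). The small Gfi1 peaks 4 and 7 were also called. Peak 4, with 45 counts against 5 in EC, rose by 4.24 ± 1.04 (log2, SE, adjusted p = 0.00299). Its value was 5.33 without EC library 1 and 3.31 with loess offsets. The call was lost when those 3 libraries of high chromosome X counts were left out (3.69, adjusted p = 0.0504). Peak 7, with 33 counts against 2, was 36.2-fold higher with an exact 95% counting interval of 9.26 to 311 (adjusted p = 0.0116). Its fitted log2 value of 4.62 was 6.35 without EC library 1, and the call was lost without EC library 2 (adjusted p = 0.0588) or pro-HSC/HPC library 1 (3.94, adjusted p = 0.0899), when those 3 libraries were left out (adjusted p = 0.0927), and with cyclic loess offsets (2.97, adjusted p = 0.163).

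At E10.5 none of the 13 was called between pre-HSC I and HE by edgeR, where 0.079% of all peaks were (0.0656% higher and 0.0134% lower), and 4 had an unadjusted p under 0.05. They were Gfi1 peaks 3 and 6, at 0.92 ± 0.39 and 1.62 ± 0.49, and Gfi1b peaks 4 and 5, at 3.25 ± 0.97 and 1.97 ± 0.62 (log2, SE), all higher in pre-HSC I (adjusted p = 0.196 to 0.479). DESeq2 called none, and 0.355% of all peaks. Gfi1b peak 5 was called without HE library 4 (2.88, adjusted p = 0.0415), and with the averaged pair entered as separate samples (adjusted p = 0.0494), where 0.733% of all peaks were called. Gfi1b peak 4 was called without HE libraries 1 and 4 (adjusted p = 0.012), where HE kept no count and 1.04% of all peaks were called.

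Over E10.5 EC, 4 members were higher and 1 lower in pre-HSC I, against 2.19% and 3.72% of all peaks, 5.91% in all. Gfi1b peak 5 had 94 counts in pre-HSC I against 6 in EC, with no EC library over 3 counts. It rose 38.0-fold, by 5.25 ± 0.75 (log2, SE, adjusted p = 5.75e-06), and by 4.37 after thinning. The size of this fold rests on those few EC counts. Gfi1b peak 4, with 54 counts in pre-HSC I against 3 in EC, was 48.7-fold higher with an exact 95% counting interval of 15.8 to 243 (adjusted p = 0.000785), and its fitted log2 value of 5.24 was 6.25 without EC library 1. Gfi1 peak 6 rose by 3.18 ± 0.52 (log2, SE, adjusted p = 6.43e-05), and by 3.95 without EC library 1. Gfi1 peak 5 rose by 1.55 ± 0.41 (log2, SE, adjusted p = 0.0132; 2.19 after thinning), with the call lost without EC library 1 or 3 or pre-HSC I library 4 (adjusted p = 0.0549, 0.0691 and 0.0521). Gfi1b peak 1 fell by 2.37 ± 0.68 on the log2 scale (SE, adjusted p = 0.0232), a value of -3.12 without the merged pre-HSC I pair, and the call was lost without EC library 3 or pre-HSC I library 1 or 4 (adjusted p = 0.0661, 0.155 and 0.0717). Without EC library 1, which stood at 29.2 CPM, Gfi1 peak 3 was also called, at 1.38 (adjusted p = 0.0151), against 0.90 ± 0.38 with it (log2, SE, adjusted p = 0.164).

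From pre-HSC I to the pre-HSC II population no member was called, where 5.15% of all peaks were (0.852% higher and 4.29% lower). The unadjusted p was under 0.05 at Gfi1 peak 5 and Gfi1b peak 2, which had -1.15 ± 0.46 and -0.96 ± 0.39 in pre-HSC II (log2, SE, adjusted p = 0.131 each). DESeq2 called none, and 5.35% of all peaks. Without pre-HSC II library 4 Gfi1 peak 5 was called, at -2.40 (adjusted p = 0.00607). Values against pre-HSC II shift with scaling, since over all peaks the median log2 fold change relative to pre-HSC I was -0.17 with TMM and 0.11 with RLE size factors.

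Over E10.5 EC, pre-HSC II had 3 members higher and 2 lower, against 9.13% and 16.2% of all peaks, 25.3% in all. Gfi1b peak 5, with 63 counts in pre-HSC II against 6 in EC, rose 41.6-fold. This was 5.38 ± 0.75 on the log2 scale (SE, adjusted p = 9.50e-08), and its size rests on those few EC counts. Gfi1b peak 4, with 31 counts against 3, was 40.8-fold higher with an exact 95% counting interval of 12.7 to 209 (adjusted p = 0.000259), and its fitted log2 value of 4.90 was 5.9 without EC library 1 and 4.18 with loess offsets. The ranges of this peak overlapped at 0, and those of Gfi1 peak 6 through EC library 1 and pre-HSC II library 1. Gfi1 peak 6 rose by 2.42 ± 0.53 (log2, SE, adjusted p = 0.000364), by 3.16 without EC library 1 and by 3.39 after thinning. Gfi1b peak 1, with 3 counts against 151 in EC, was 12.7-fold lower with an exact 95% counting interval of 4.28 to 62.5 (adjusted p = 0.000658), and its fitted log2 value of -3.59 was -4.71 without pre-HSC II library 3 and -2.98 without library 4. Gfi1b peak 2 fell by 1.20 ± 0.36 on the log2 scale (SE, adjusted p = 0.00851), and lost its call with scaling by total counts (-0.84, adjusted p = 0.0641) or cyclic loess offsets (-0.67, adjusted p = 0.158), after thinning, and with only these groups in the fit. Gfi1 peak 3 had 0.85 ± 0.37 (log2, SE, adjusted p = 0.0812) and was called with RLE size factors (1.12, adjusted p = 0.025), with scaling by total counts and with cyclic loess offsets, by DESeq2, and without EC library 1.

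**Figure D5:**
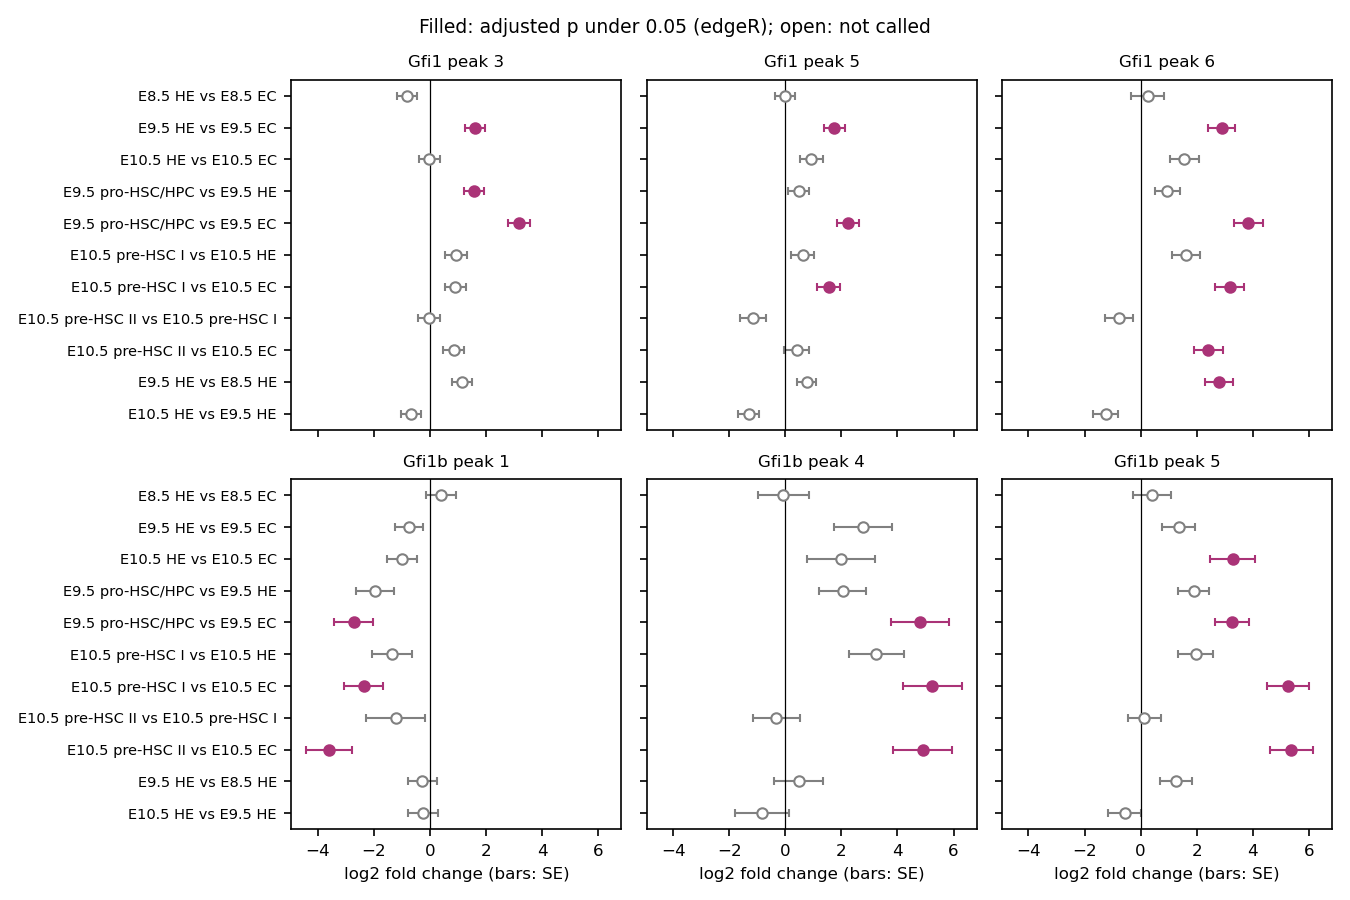
Log2 fold changes (points, bars SE) of 6 peaks in 11 comparisons, first-named group over second, with filled points for adjusted p under 0.05 in edgeR's test. Gfi1 peaks 3, 5 and 6 are filled at E9.5 HE over EC, where the 3 Gfi1b peaks are open points; comparisons that share a group are not independent.

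The comparisons within a day share EC or HE libraries, so their values stand side by side and do not support one another. Whether the Gfi1 and Gfi1b windows differed in the HE against EC comparison was not tested. Over the 34 samples the log2 CPM of Gfi1 peak 6 correlated with that of Gfi1 peak 3 at r = 0.74. With Gfi1b peaks 4 and 5 it correlated at 0.69 each. Gfi1 peak 5 had lower values, at 0.47 with Gfi1 peak 6, 0.38 with Gfi1 peak 3 and 0.23 with Gfi1b peak 5. Gfi1b peaks 2 and 7 correlated with each other at 0.67. These are descriptions over libraries that share groups and depth.

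The peaks outside the windows whose log2 CPM over the 34 samples was most like that of a leading member were found by Pearson's r. For Gfi1 peak 6 they were chr2:148424844-148426090, chr1:163664708-163666022 and chr3:58917739-58918479, at r = 0.89, 0.87 and 0.87. For Gfi1b peak 5 they were chr5:139775134-139775715, chr4:122599881-122600506 and chr15:66990109-66990444, at 0.88, 0.87 and 0.86. Gfi1 peak 3 was most like chr18:57216557-57216776, chr11:104475039-104475877 and chr8:50406801-50407159, at 0.81, 0.78 and 0.78. Gfi1b peak 7, which was open in all groups, was most like chr5:123582027-123583856, chr7:29953343-29956284 and chr7:29766239-29768200, at 0.83, 0.82 and 0.82.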

How the data were processed

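Per the file headers and labels, the authors deposited raw read counts, not normalized, for 76018 peaks on mm9 and 35 libraries, each made from 1500 cells with 13 PCR cycles. The submitters' processing notes name DiffBind 1.14.6, MACS2 2.0.1, Bowtie 1.0.0, Trim Galore 0.3.1, bedtools 2.17.0, deepTools and SAMtools; settings, and any shift of reads to the cut site, are not given in the sources used here. Of the counts from 10 to 49, 54.1% to 78.2% per library were even, so reads may be counted in pairs, and counting intervals, which cover counting error only and treat reads as independent molecules, would then be too narrow. Positions are as in the deposited table.

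Libraries 2 and 3 of pre-HSC I were averaged, since their chi-square over its degrees of freedom was 0.4606, where the other 50 within-group pairs had 2.586 to 8.037. Peaks were filtered with filterByExpr (67108 kept, 8910 removed), scaled by TMM, and a two-sided quasi-likelihood test (glmQLFit, glmQLFTest) was run in edgeR 4.0.16 under R 4.3.3, in 1 fit of 34 samples with a mean per group (25 residual degrees of freedom, common dispersion 0.147). An F test over the groups, 11 comparisons of groups and 2 changes of a difference were made, with adjustment over all peaks at 0.05. The SE is the size of the log2 fold change over the square root of F. CPM use the TMM-scaled library size, and correlations log2(CPM + 1). The test was also run on counts simulated with the common dispersion for every peak, which leaves out differences in spread between peaks. Its outcome is not given, and no result here rests on it.

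The windows, comparisons and lists were chosen with earlier results of these data known. Peaks described in full were the one with the highest mean in each window, the 5 with the smallest p over the groups among those called, and any called for HE against EC; further members are named where a test called them or to account for all 16. A search of other genes' peaks was not made, as no mm9 annotation was used here. Same-numbered E10.5 HE and EC libraries deviated together (r = 0.127 to 0.348 over peaks); in no other comparison was every pair over 0.1. Other scalings, filters, fits and left-out libraries were tried, and the closing section gives their effect. Loess offsets, the unmerged pre-HSC I pair and the blocked fit of E10.5 HE and EC alone were chosen after seeing the data. So was leaving out shallow libraries, or the 3 E9.5 libraries with the highest raw counts in the chromosome X peak. DESeq2 1.42.0 and limma 3.58.1 (cyclic loess) served alternatives, and Python 3.11.15 with scipy 1.17.1 and matplotlib 3.10.9 the intervals and figures.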

Additional observations from a re-analysis of the deposited data

Results flagged for a closer look

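The change of the HE against EC difference at Gfi1 peak 3 from E8.5 to E9.5, 2.43 on the log2 scale, passed a test of the difference itself. The mean was higher in EC than in HE at E8.5 and lower at E9.5. At E8.5 the libraries overlapped and the difference was not called by edgeR (adjusted p = 0.288). The call of the change was lost without the 4 shallow E8.5 libraries (adjusted p = 0.329). It was also lost without the 3 E9.5 libraries of high chromosome X counts (adjusted p = 0.0684).

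In groups of 4 libraries, 13 single values lay far from the other 3 by Dixon's criterion, out of 111 tests, where chance gives about 5.55 (1 in 20); groups with many zeros make such flags easily. At Gfi1 peak 5, pre-HSC II library 4 stood at 19.3 CPM against 2.50 to 4.78. At Gfi1 peak 6, pre-HSC II library 1 stood at 6.94 CPM against 25.0 to 28.7, and at Gfi1b peak 2 the same library stood at 3.47 CPM against 12.5 to 13.4; it is the shallowest library. At Gfi1b peak 1, E10.5 EC library 3 stood at 15.5 CPM against 8.73 to 9.66. E9.5 HE library 4 was low at Gfi1 peak 7, at 0.783 CPM against 2.85 to 3.02, and at Gfi1b peak 3, at 2.35 CPM against 4.31 to 4.56. At Gfi1 peak 2, E9.5 EC library 3 stood at 5.30 CPM against 1.71 to 2.11. At Gfi1 peak 9, E10.5 EC library 1 stood at 1.88 CPM against 0.198 to 0.293, and E10.5 HE library 4 at 3.22 CPM against 0.668 to 1.02. The other 4 were single libraries with counts where the rest had 0. They were E8.5 HE library 3 (0.188 CPM) and E9.5 EC library 1 (0.310 CPM) at Gfi1 peak 7, E10.5 HE library 3 (0.334 CPM) at Gfi1 peak 8 and pre-HSC II library 4 (2.97 CPM) at Gfi1b peak 6.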

How the results depend on the processing

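The number of members called stayed within 1.5 times the main number in 106 of 133 combinations of a comparison and an alternative other than leaving out 1 library. A main number of 0 that stayed 0 was included, as was an equal number made up of other peaks. The change of the HE against EC difference to E10.5 could not move there, since no peak of the whole table was called in its alternatives. RLE size factors and no count filter moved none. With every library thinned to the lowest total, 20610 peaks were tested; the count over all groups went from 8 to 4, pro-HSC/HPC over EC from 8 to 4, pre-HSC I over EC from 5 to 3, pre-HSC II over EC from 5 to 2 and E8.5 HE over EC from 0 to 1 (Gfi1 peak 3, -2.28), and Gfi1b peak 5 at E9.5 HE over EC turned to -0.20 (adjusted p = 0.968). Gfi1 peaks 4 and 7 and Gfi1b peaks 1 and 4 then had too few counts to be tested; in the first 3 of these comparisons every called member still tested kept its call, and for pre-HSC II over EC Gfi1b peak 2 lost it. Thinned, 50.7%, 13.1%, 5.35% and 29.3% of all peaks were called in these first 4, and 1.52% for E8.5 HE over EC, against 1.44% in the main fit. The single call of E10.5 HE over EC passed from Gfi1b peak 5 to Gfi1 peak 6 (2.88% of all peaks thinned, against 2.28%). With only the groups compared, pro-HSC/HPC over HE, E9.5 over E8.5 HE and the change of the HE against EC difference to E9.5 gave 3 each against 1 (over all peaks 8.5%, 12.5% and 7.69%, against 1.74%, 2.14% and 1.5%). In such fits pre-HSC II over EC gave 3 (28.4% of all peaks, against 25.3%). E10.5 HE over EC gave 0 (0.294%, against 2.28%), also with the replicate block (5.29%). DESeq2 gave 2 each for pro-HSC/HPC over HE, E9.5 over E8.5 HE and the change of difference, and 1 against 0 for E10.5 over E9.5 HE. The replicate block gave the same 2, 2, 2 and 1, and moved no other count. Over all peaks DESeq2 called 3.54%, 5.21%, 3.8% and 2.02% in these comparisons. The block called 2.15%, 2.98%, 1.9% and 0.837%, against 1.74%, 2.14%, 1.5% and 0.557% in the main fit. The change of difference was 2 with scaling by total counts (1.18% of all peaks) and 3 with loess offsets (1.58%), against 1.5% in the main fit. It was 0 without the shallow E8.5 libraries (0.00823%) or with the 3 E9.5 libraries of high chromosome X counts left out (0.0625%). Leaving out those 3 libraries also took E9.5 HE over EC from 3 to 0 (0.0511% of all peaks, against 2.58%). Without the shallow E10.5 HE libraries, E10.5 HE over EC went from 1 to 0 (0.512% of all peaks, against 2.28%) and pre-HSC I over HE from 0 to 1 (1.04%, against 0.079%). The latter was also 1 with libraries 2 and 3 of pre-HSC I kept apart (0.733%). The shares of all peaks called moved as given beside the counts, and the cause was not tested.

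With any 1 library left out, counts ran from 7 to 9 over all groups, 0 to 2 for E10.5 HE over EC, 0 to 1 for pro-HSC/HPC over HE, 7 to 8 for pro-HSC/HPC over EC, 0 to 1 for pre-HSC I over HE and for pre-HSC II over pre-HSC I, 3 to 5 for pre-HSC I over EC, 5 to 6 for pre-HSC II over EC and 1 to 2 for the change of difference to E9.5; 3 to 3 for E9.5 HE over EC, 1 to 1 for E9.5 over E8.5 HE, and 0 to 0 for the others. Depth limits the small peaks most, since 3 counts are 6.57 CPM in the shallowest library.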
